A study of Mus musculus with 12 samples.

Results

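The TET demethylases Tet1, Tet2 and Tet3, the DNA glycosylase gene Tdg and the methyl-CpG binding protein genes Mbd1, Mbd2, Mbd3 and Mbd4 were followed in mouse palatal shelves, the embryonic outgrowths that form the roof of the mouth. They were found by gene symbol, and each of the 8 symbols stood on 1 row of the 56691 genes in the deposited files. RNA came from 12 libraries at gestational day 12, 3 for each of 4 groups, and each library pooled the shelves of 2 embryos of one genotype by the extraction protocol, while the series text counts 3 pooled animals a group. The knockout group carried a conditional knockout of Dnmt1, the maintenance DNA methyltransferase, and was untreated. The AzadC group was wild type and received 5-aza-2'-deoxycytidine, a cytosine analogue that traps DNA methyltransferases. The vehicle group was wild type and received the vehicle of AzadC, and the control group was wild type and untreated. The sources used here do not give the Cre driver, the deleted exons, the cells that recombine, or the dose, route and time of AzadC.

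TET enzymes oxidise 5-methylcytosine in DNA to 5-hydroxymethylcytosine and on to formylcytosine and carboxylcytosine. The glycosylase encoded by Tdg cuts out these last forms, and base excision repair then puts in an unmethylated cytosine. MBD proteins read methylated CpG sites: Mbd1 and Mbd2 encode repressors that bind them, Mbd3 encodes a subunit of the NuRD remodelling complex with little binding of its own to methylated DNA in mammals, and Mbd4 encodes a glycosylase for G:T mismatches. The question for these genes was whether the machinery that removes and reads DNA methylation changes in level when the enzyme that maintains the mark is deleted or blocked.

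The genes lie on 4 chromosomes of the mm10 build, by GENCODE M21. Tet1 is at chromosome 10, 62804570 to 62908996 (minus strand), Tet2 at chromosome 3, 133463679 to 133545139 (minus strand), and Tet3 at chromosome 6, 83362373 to 83459084 (minus strand). Tdg is at chromosome 10, 82629828 to 82650799 (plus strand), Mbd3 at chromosome 10, 80392539 to 80399550 (minus strand), and Mbd4 at chromosome 6, 115840697 to 115853371 (minus strand).

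RefSeq promoter windows of 300 bases (250 before and 50 after the start, build GRCm38.p6) were at hand for 6 of the 8 genes. The 6 windows held between 17 and 57 CpG sites, and the median of all 32851 windows was 7. Tet2 had the most, 57 sites at an observed over expected ratio of 1.17, and only 50 windows (0.152%) had at least as many. The Tet3 window held 22 sites and the Tet1 window 17. All TET windows lie inside the gene spans above, whose 5′ ends are at 62908996 (Tet1), 133545139 (Tet2) and 83459084 (Tet3). The bases before the start of the Tet1 window are at chr10:62887325-62887574. Each window thus belongs to 1 internal start, and starts nearer the 5′ ends are not described. The 250 bases before the start are shown for Tet2, the gene whose level changed below, at chr3:133544391-133544640 (minus strand), and for Tet3, the most highly counted TET gene, at chr6:83441679-83441928 (minus strand). Each is written 5′ to 3′ along the gene with every CpG in capitals.
Tet2: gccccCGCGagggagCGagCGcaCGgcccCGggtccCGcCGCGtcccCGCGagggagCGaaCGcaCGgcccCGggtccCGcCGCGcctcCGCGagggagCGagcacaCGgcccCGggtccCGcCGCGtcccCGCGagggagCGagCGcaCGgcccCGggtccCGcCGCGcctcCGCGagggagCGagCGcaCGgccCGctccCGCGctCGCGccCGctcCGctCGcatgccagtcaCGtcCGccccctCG
Tet3: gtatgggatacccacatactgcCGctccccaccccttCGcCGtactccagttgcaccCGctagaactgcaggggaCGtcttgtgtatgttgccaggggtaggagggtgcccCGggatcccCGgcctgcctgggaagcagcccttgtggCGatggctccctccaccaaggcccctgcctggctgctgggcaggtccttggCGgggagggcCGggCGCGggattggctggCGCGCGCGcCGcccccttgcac
The Tet2 sequence holds 51 CpG sites and the Tet3 sequence 17. The Tet2 sequence repeats itself with a period of 42 bases: of 208 positions compared with the base 42 further on, 162 (77.9%) were identical, against 35.3% at the best of the shifts from 10 to 100 bases in Tet3. DNA methylation itself was not measured in these libraries.

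All 8 genes were well detected, at 454 to 6530 counts per library. Levels between genes are compared in TPM, the library-scaled abundance that divides by transcript length. Mbd3 had the highest TPM, with a mean of 218 over the 12 libraries, followed by Tdg at 118, Mbd2 at 52.3, Mbd1 at 46.8, Tet3 at 28.2, Mbd4 at 18.3, Tet2 at 15.6 and Tet1 at 8.41. Most neighbours in this order did not overlap over the 12 libraries. The exceptions were Mbd2 and Mbd1, which ran from 40.8 to 60.4 and from 41.8 to 51.8 TPM, and Mbd4 and Tet2, which ran from 15.3 to 22.6 and from 11.4 to 19.2 TPM. The TET genes together came to 45.3 to 50.2 TPM in the knockout libraries, 49.0 to 53.7 in AzadC, 50.8 to 62.7 in vehicle and 51.0 to 59.3 in control libraries. Tet3 supplied the largest part of that sum in each library.

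**Figure D1:**
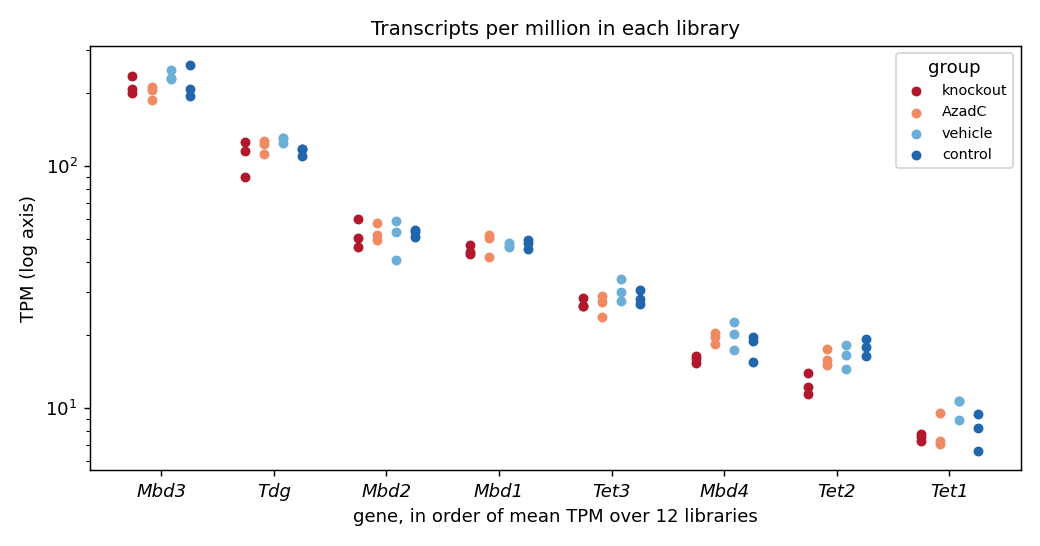
Abundance in TPM (log axis) of each gene in each of the 12 libraries, with genes in order of their mean and points coloured by group. Mbd3 is highest at a mean of 218 TPM and Tet1 lowest at 8.41, and the order of levels is wider than the spread between groups.

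The targeted gene Dnmt1 had 201, 179.6 and 191 CPM (read counts scaled to a common library size) in the knockout libraries, against 286, 278 and 258 CPM in control libraries, so reads of it remained. The AzadC libraries had 408, 482 and 411 CPM and the vehicle libraries 452, 451 and 448 CPM. Dnmt1 was thus higher in vehicle than in control, although both are wild type (log2 change 0.72, SE 0.07, edgeR adjusted p = 0.000286). The knockout was set against each of them. The 10 markers of palatal mesenchyme were present in all libraries, with a summed level of 3279 to 3447 CPM in the knockout, 3276 to 3509 in AzadC, 2598 to 3509 in vehicle and 3826 to 4499 in control libraries. All knockout, AzadC and vehicle libraries thus lay below all control libraries. Total counts ran from 12640536 to 33113790 per library. Nothing in the labels ties the libraries of one group to separate litters one by one, so p-values measure the spread between these pooled libraries. In bulk tissue fewer cells of a type and less RNA per cell cannot be told apart.

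Tet2 was lower in the knockout, by 20.6% against control and by 23.1% against vehicle, and no other gene of the 8 passed the test in either comparison. Tet2 had 57.6, 51.5 and 51.9 CPM in the knockout libraries. It had 67.1, 71.5 and 76.3 CPM in AzadC, 68.5, 73.8 and 67.0 CPM in vehicle and 63.4, 70.3 and 69.1 CPM in control libraries. All 3 knockout libraries lay below all 9 others, while the other groups overlapped. Between knockout and control 31.9% of all genes had libraries that did not overlap, in either direction. How many genes had knockout libraries apart from all 9 others was not counted. Against control the log2 change was -0.33 (SE 0.07, 95% interval -0.49 to -0.17, edgeR adjusted p = 0.00971), with means of 53.7 ± 3.42 CPM in the knockout and 67.6 ± 3.67 CPM in control (SD, n = 3 each). Of all 17335 genes tested, 14.3% passed in this comparison, so 1 of 8 is close to the background for both directions together (7.83% higher and 6.43% lower). That share was 7.6% without knockout 2 and 8.48% without control 2. Against vehicle the log2 change was -0.38 (SE 0.07, 95% interval -0.54 to -0.22, edgeR adjusted p = 0.00532), where 10.8% of all genes passed (6.7% higher and 4.13% lower), and 5.65% without knockout 2 and 6.42% without vehicle 3. Of all genes 30.4% had libraries that did not overlap there, and of the 8 Tet2 alone did. Both comparisons use the same knockout libraries. The call against control was lost without knockout 2 (log2 change -0.30, edgeR adjusted p = 0.0538, range over the alternatives 0.00158 to 0.0538), and the call against vehicle with the transcript length offset given below (edgeR adjusted p = 0.0555, range over the alternatives 0.000255 to 0.0555).

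Tet2 did not pass in AzadC. The change against vehicle was 0.04 log2 units (SE 0.07, 95% interval -0.12 to 0.20, edgeR adjusted p = 0.966), with means of 71.6 ± 4.64 CPM in AzadC and 69.8 ± 3.57 CPM in vehicle (SD, n = 3 each). The difference between the knockout effect and the AzadC effect was -0.37 log2 units (SE 0.10, 95% interval -0.60 to -0.15) and missed the threshold by edgeR (adjusted p = 0.0633), where 4.4% of all genes passed. DESeq2 placed it past the threshold (adjusted p = 0.0280, range over the alternatives 0.0280 to 0.156). Over the 4 groups at once Tet2 differed (edgeR adjusted p = 0.00638), as did 16.4% of all genes, and none of the other 7 did (edgeR adjusted p 0.201 to 0.785, 0 of 7 at an unadjusted p below 0.05, and 0 by DESeq2 or limma-voom).

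**Figure D2:**
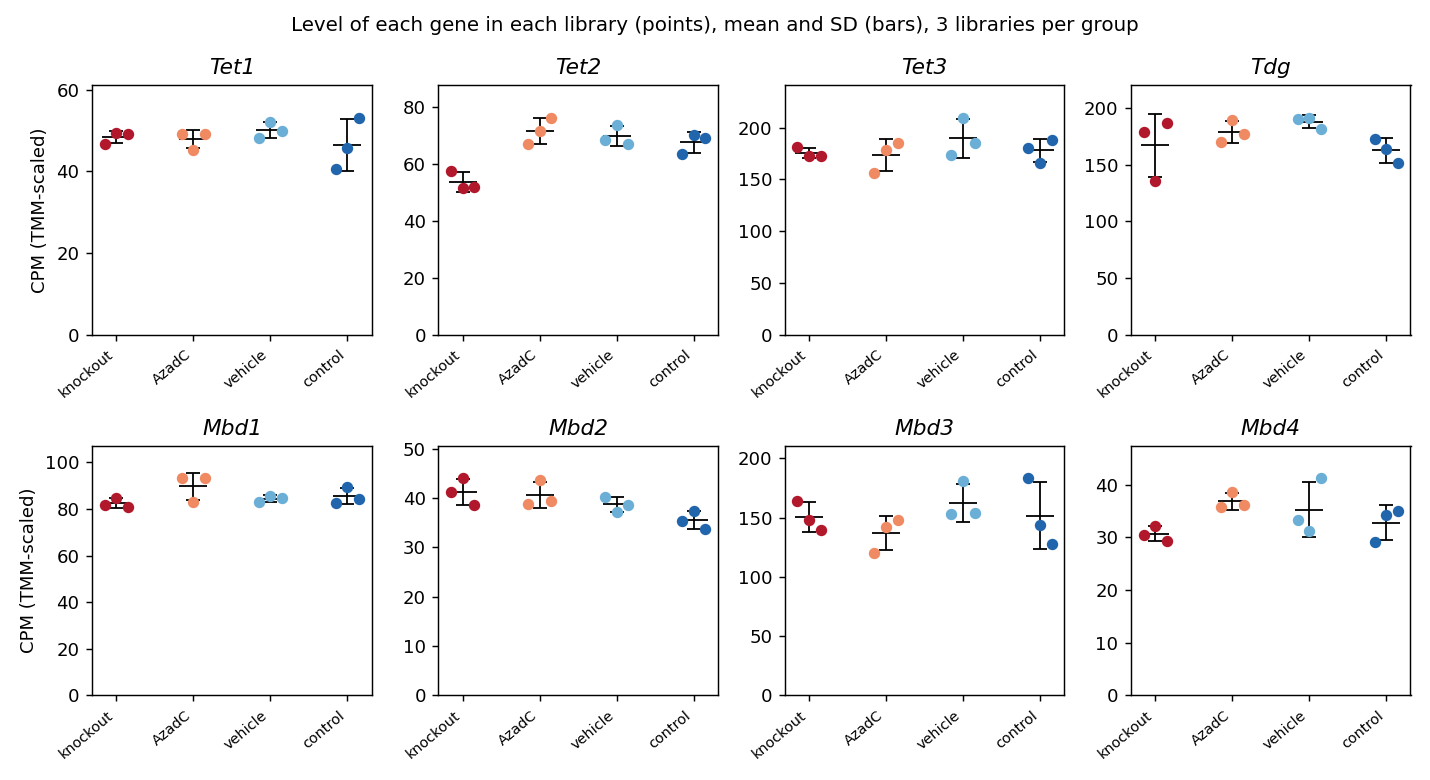
Level in CPM of each gene in each library (points), with the mean and SD of 3 libraries (bars), in knockout, AzadC, vehicle and control shelves. Tet2 is the gene whose knockout libraries, 51.5 to 57.6 CPM, lie below all 9 others. How many of all genes do so was not counted.

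Neither of the other TET genes passed in any comparison. Tet1, the TET gene best known from pluripotent and germ cells, had 46.8, 49.4 and 49.1 CPM in the knockout libraries, against 40.5, 45.8 and 53.2 CPM in control libraries. The knockout values lay within the control range, and the change was 0.06 log2 units (SE 0.09, 95% interval -0.13 to 0.26, edgeR adjusted p = 0.721). In AzadC Tet1 had 49.2, 45.3 and 49.1 CPM, against 48.3, 52.2 and 49.8 CPM in vehicle libraries. These overlapped too, with a change of -0.07 (95% interval -0.26 to 0.13, edgeR adjusted p = 0.956).

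Tet3, a TET enzyme active in the zygote and in the nervous system, had 181, 173 and 172 CPM in the knockout libraries, against 180.0, 166 and 188 CPM in control libraries. The change was -0.02 log2 units (SE 0.08, 95% interval -0.20 to 0.15, edgeR adjusted p = 0.908). In AzadC Tet3 had 156, 178 and 186 CPM, against 173, 209.8 and 186 CPM in vehicle libraries, a change of -0.13 (95% interval -0.31 to 0.05, edgeR adjusted p = 0.876). Both intervals against control ended above the -0.33 log2 units estimated for Tet2, though the difference between the genes was not tested. As a share of the summed TPM of the TET genes, Tet2 made up 26.5% ± 1.33 in the knockout, 31.6% ± 1.14 in AzadC, 28.7% ± 0.182 in vehicle and 32.7% ± 0.804 in control (SD, n = 3 each). The 3 knockout shares, 25.1% to 27.7%, lay below all others. Vehicle shares, 28.5% to 28.8%, also lay below all AzadC shares (30.3% to 32.5%) and all control shares (32.1% to 33.6%). Tet2 CPM was not lower in vehicle than in control. TPM divides by the mean transcript lengths, which shifted between groups as given below.

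Tdg did not pass in any comparison, and 1 of its knockout libraries stood apart. It had 179, 135 and 187 CPM in the knockout libraries, 169.9, 189.5 and 177 CPM in AzadC, 191, 191 and 181 CPM in vehicle and 173, 164 and 151 CPM in control libraries. Knockout 2 was the lowest of all 12. The change against control was 0.04 log2 units (SE 0.10, 95% interval -0.18 to 0.25, edgeR adjusted p = 0.860), and 0.17 without knockout 2 (SE 0.07), which did not pass either. The Tdg count was whole, within 0.005, in 0 of the 12 libraries, so some of its reads were split with other genes. The copies Tdg-ps and Tdg-ps2 were found by name, and whether they share these reads was not tested. The copies together had 0.274, 14.0 and 0.948 CPM in the knockout libraries and 0.388, 0.345 and 8.73 CPM in control libraries, so knockout 2 and control 3 stood apart. With the copies added, a setting chosen after the data were seen, Tdg had 179, 149 and 188 CPM in the knockout and 173, 164 and 159.9 CPM in control libraries, and the change was 0.05 (SE 0.08) and did not pass. Tdg also overlaps Glt8d2 on the other strand over 367 bases, and the sources used here do not say whether counting used strand. In vehicle all 3 Tdg values lay above all control values, as for either direction in 22.8% of all genes, by 0.21 log2 units (SE 0.10, 95% interval -0.01 to 0.42, edgeR adjusted p = 0.281).

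Of the methyl-CpG binding protein genes none passed in any comparison. Mbd2 came nearest: it had 41.1, 44.0 and 38.6 CPM in the knockout libraries, against 35.3, 37.4 and 33.8 CPM in control libraries, with no overlap. The change was 0.22 log2 units (SE 0.08, 95% interval 0.05 to 0.39, unadjusted p = 0.0170, edgeR adjusted p = 0.0888). Of all genes tested 31.9% had libraries that did not overlap in this comparison, and 2 of these 8 did, Tet2 lower and Mbd2 higher. Against vehicle, at 40.3, 37.2 and 38.6 CPM, the Mbd2 change was 0.09 (95% interval -0.08 to 0.26, edgeR adjusted p = 0.513), and AzadC libraries had 38.7, 43.5 and 39.3 CPM.

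Mbd1, on chromosome 18 as is Mbd2, had the lowest biological coefficient of variation of the 8 (0.0597), with 81.7, 84.9 and 80.8 CPM in the knockout libraries, 93.1, 82.9 and 93.2 CPM in AzadC, 83.0, 85.8 and 84.8 CPM in vehicle and 82.7, 89.3 and 84.3 CPM in control libraries. Its change was -0.05 log2 units in the knockout against control (SE 0.06, 95% interval -0.18 to 0.08, edgeR adjusted p = 0.639) and 0.09 in AzadC against vehicle (SE 0.06, 95% interval -0.04 to 0.22, edgeR adjusted p = 0.892). Changes beyond 0.22 log2 units in either direction were outside both intervals.

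Mbd3 did not pass in AzadC, where its libraries lay below those of vehicle. It had 120.5, 142 and 148 CPM in AzadC libraries, against 153, 181 and 154 CPM in vehicle libraries. The groups did not overlap, as for 11.9% of all genes, and the change of -0.25 log2 units (SE 0.12, 95% interval -0.51 to 0.02) did not pass (edgeR adjusted p = 0.805). In the knockout Mbd3 had 164, 148 and 139.5 CPM, against 183, 144 and 128 CPM in control libraries, a change of -0.01 (95% interval -0.28 to 0.25, edgeR adjusted p = 0.963). Mbd4 had 30.4, 32.2 and 29.4 CPM in the knockout libraries, 35.8, 38.6 and 36.1 CPM in AzadC, 33.3, 31.2 and 41.2 CPM in vehicle and 29.1, 34.3 and 35.0 CPM in control libraries. Its change was -0.09 against control (95% interval -0.33 to 0.14, edgeR adjusted p = 0.626) and -0.20 against vehicle (95% interval -0.43 to 0.03, edgeR adjusted p = 0.275). AzadC against vehicle gave 0.06 for Mbd4 (95% interval -0.17 to 0.29, edgeR adjusted p = 0.964).

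Over the 8 genes, 3 changes were above 0 and 5 below in the knockout against control, with a median of -0.02 log2 units beside -0.003 over all genes. In AzadC against vehicle 4 were above and 4 below with a median of -0.01, and 0 of 8 passed by edgeR, DESeq2 or limma-voom, with 0 at an unadjusted p below 0.05. Of all genes 0.0115% passed there, and 0.0947% without vehicle 1. In vehicle against control 7 were above 0 with a median of 0.10, and 0 of 8 passed by any of these tools, with 0 at an unadjusted p below 0.05, where 3.52% of all genes passed (0.758% without vehicle 1, 0.774% without vehicle 3, 1.59% without control 2 and 1.88% without control 3). Against vehicle the knockout had 1 change above 0 and 7 below, with a median of -0.11. The median over all genes was -0.003 there and in vehicle against control. Both comparisons use the same vehicle libraries, so their counts of direction are not separate observations. The median of the 8 absolute changes in the knockout against control was 0.06 log2 units, and that of all genes was 0.20.

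**Figure D3:**
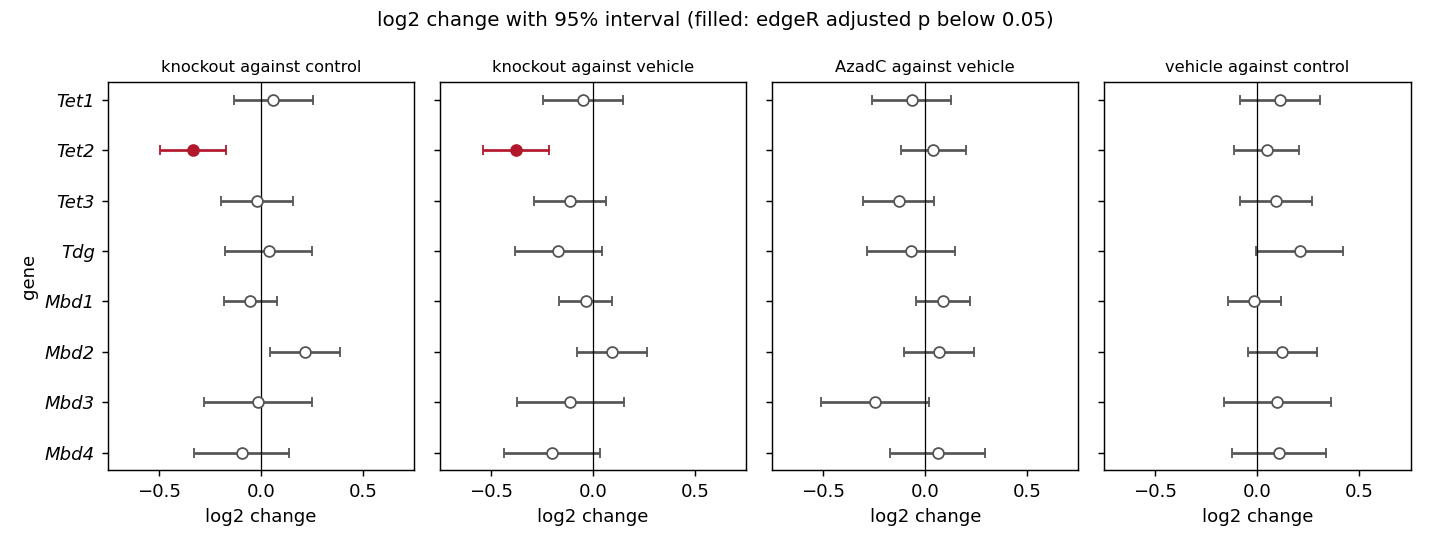
Log2 change of each gene with its 95% interval in 4 comparisons, where filled red symbols have an edgeR adjusted p below 0.05. Tet2 is past the threshold in the knockout against control (-0.33) and against vehicle (-0.38), and no gene is in AzadC against vehicle or vehicle against control.

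The deposited files also hold a mean transcript length for each gene, weighted by the estimated abundance of its isoforms, so a shift in this length is a shift in the isoforms assigned. Tet1 has 10 listed transcripts between 361 and 14369 bases. Its mean length was 9538, 10161 and 10532 bases in the knockout libraries and 8224, 9891 and 10720.3 bases in AzadC, against 8758, 7906 and 7649.9 bases in vehicle and 9822, 9160.1 and 9504 bases in control libraries. The Tet1 lengths in vehicle libraries were thus below all knockout and all control libraries, and overlapped AzadC. Over all genes tested, 7.81% had lengths that did not overlap between vehicle and control, and 8.21% between knockout and vehicle. Tet2 has 10 listed transcripts between 423 and 9179 bases, and its mean length was 6631, 7098 and 6740.3 bases in the knockout libraries, against 6302, 6603 and 6124 bases in control libraries. These did not overlap, by a gap between 6631 and 6603 bases, as for 8.76% of all genes. Vehicle ran from 6628 to 7649.6 bases and AzadC from 6870 to 7467 bases, so both also lay above all control libraries. Tet3 was steadier, from 9909 to 10407 bases over all libraries. With these lengths as an offset, the Tet2 change was -0.44 log2 units against control (edgeR adjusted p = 0.0132) and -0.34 against vehicle, where the call was lost. Tet1 moved to -0.37 in the knockout against vehicle in place of -0.05, and to -0.30 in AzadC against vehicle in place of -0.07, and passed in neither. Mbd2 in the knockout against control moved to 0.05 in place of 0.22.

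**Figure D4:**
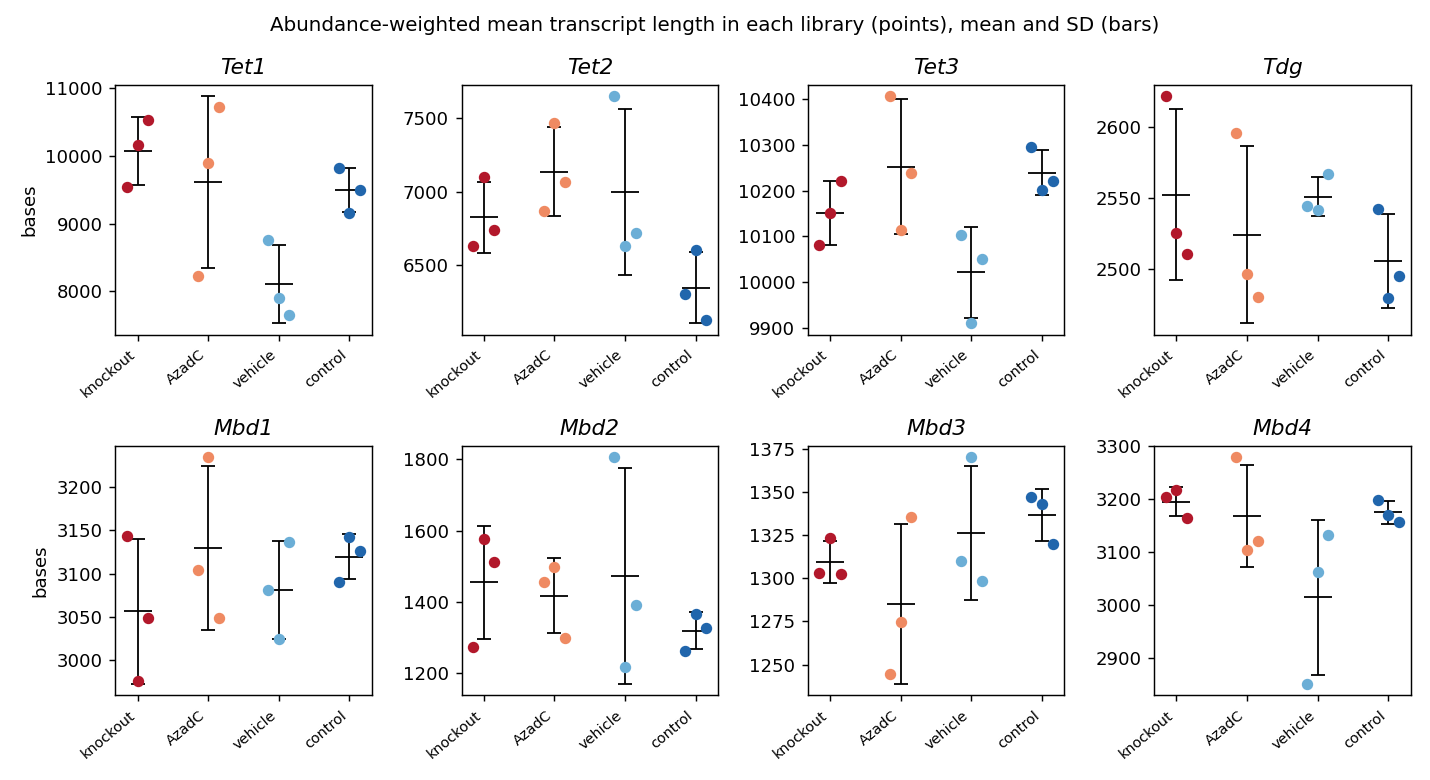
Abundance-weighted mean transcript length in bases of each gene in each library (points), with the mean and SD of 3 libraries (bars). The axes do not start at 0. Tet1 lengths in vehicle shelves, 7649.9 to 8758 bases, lie below all knockout and control libraries and overlap AzadC. Tet2 lengths in knockout, AzadC and vehicle shelves all lie above those in control shelves.

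Among the genes whose log2 CPM followed that of Tet2 most closely over the 12 libraries were Stat5b (Pearson r = 0.94), a transcription factor of cytokine signalling, and Igsf3 (r = 0.94), an immunoglobulin superfamily protein. They were taken from 13096 genes, and the libraries share their groups and depth, so the values are a description. Markers of some other cell types also differed between knockout and control libraries, while those of epithelium, red cells and neurons overlapped. The 10 epithelial markers summed to 188 to 387 CPM in the knockout and 222 to 391 in control libraries. The 8 red cell markers summed to 2030 to 3144 and 1820 to 4917 CPM. The 8 neuron markers summed to 37.8 to 54.0 and 23.8 to 53.2 CPM, with Snap25 at 0 in some libraries. The 10 macrophage markers summed to 296 to 327 CPM in the knockout, 127 to 141 in AzadC, 80.3 to 108 in vehicle and 68.7 to 91.3 in control libraries, with none at 0 in any library. The 8 cartilage markers summed to 448 to 690.4 CPM in the knockout, 1139 to 1547 in AzadC, 1509 to 1656 in vehicle and 1019 to 3069 in control libraries, with Matn1 at 0 in some. The 8 endothelial markers summed to 367 to 447 CPM in the knockout, 485 to 575 in AzadC, 441 to 487 in vehicle and 471 to 492 in control libraries. The 9 germ cell markers summed to 62.3 to 68.4 CPM in the knockout, 46.1 to 50.4 in AzadC, 48.8 to 52.3 in vehicle and 33.6 to 41.3 in control libraries, with 5 of the 9, among them Pou5f1 and Nanog, at 0 in some. These ranges show the endothelial markers lower and the germ cell markers higher in all knockout than in all control libraries. The germ cell sums of all AzadC and all vehicle libraries also lay above those of control. Only 3 of these 9 markers had at least 10 counts in every library, and the sums were not used to name cells. The 10 skeletal muscle markers summed to 175 to 1017 CPM in the knockout, 39.5 to 166 in AzadC, 43.9 to 405 in vehicle and 6.85 to 98.2 in control libraries, with Myod1 and Pax7 at 0 in some. The 6 Schwann cell markers summed to 141.2 to 174 CPM in the knockout, 45.0 to 115 in AzadC, 90.7 to 121 in vehicle and 81.2 to 141.1 in control libraries. The part of these cell types and of the mesenchyme in the Tet2 result was not tested.

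Genes that act with the TET and MBD proteins were described from 7 lists, of which 74 genes were tested. The lists include the DNA methyltransferases, and so the targeted gene Dnmt1 itself. Dnmt1 is counted below among the genes lower in the knockout in both comparisons and higher in vehicle against control. In the knockout against control 6 were higher and 3 lower, or 12.2%, beside the 14.3% of all genes above. Their median change was 0.11 log2 units. Against vehicle 2 were higher and 4 lower, or 8.11%, beside 10.8% of all genes, and in vehicle against control 8 were higher and 0 lower, where 1.46% of all genes were higher and 2.06% lower. In AzadC against vehicle 0 of 74 passed by edgeR, DESeq2 or limma-voom, with 4 at an unadjusted p below 0.05. Of all genes 0.0115% passed there by edgeR, so a count of 0 says little about these lists. The difference between the knockout and AzadC effects passed for 5 of the 74 (6.76%, beside 4.4% of all genes). Apobec1 (1.88 log2 units, SE 0.44, edgeR adjusted p = 0.0296) and Parp1 were above 0. Zbtb4 (-0.95, SE 0.19, edgeR adjusted p = 0.0162), Rbbp7 and Dnmt1 were below. Zbtb4 averaged 17.3 CPM in the knockout, 24.2 in AzadC, 18.9 in vehicle and 26.0 in control, and Parp1 300, 303, 336 and 260. This difference takes in the gap between vehicle and control.

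Among the repair genes that complete demethylation, 1 of 19 (5.26%) passed in the knockout against control, beside 14.3% of all genes. Parp1, which signals DNA strand breaks, had 307, 293 and 302 CPM in the knockout libraries, against 272, 249 and 259 CPM in control libraries (log2 change 0.21, SE 0.06, edgeR adjusted p = 0.0311). The vehicle libraries, at 340.4, 337 and 332 CPM, were higher than both groups, and both Parp1 and the DNA ligase gene Lig1 were higher in vehicle against control by 0.37 and 0.40 log2 units (edgeR adjusted p = 0.00626 and 0.0274, SE 0.06 and 0.09). Of the 3 cytidine deaminase genes tested, Apobec1, an RNA-editing enzyme, rose by 1.85 log2 units against control (SE 0.31, edgeR adjusted p = 0.00155) and by 1.32 against vehicle (SE 0.30, edgeR adjusted p = 0.0127). Apobec1 had 5.16, 5.41 and 6.64 CPM in the knockout libraries, against 1.52, 1.07 and 2.23 CPM in control libraries, and the macrophage markers above were also higher there. In AzadC the macrophage sums lay above all vehicle libraries, while Apobec1 averaged 2.26 CPM in AzadC and 2.29 CPM in vehicle. The part of macrophages in the Apobec1 change was not tested. Of the 14 tested TET partners and cofactor genes 0 passed in the knockout against control by edgeR, DESeq2 or limma-voom, with 1 at an unadjusted p below 0.05. In vehicle against control Sall4, a zinc finger factor of stem cells, rose by 1.68 (SE 0.42, edgeR adjusted p = 0.0463).

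Among the other methyl-CpG readers 1 of 12 was higher and 1 lower in the knockout against control, or 16.7%, beside 14.3% of all genes. Zbtb4, a zinc finger protein that binds methylated CpG, averaged 17.3 ± 0.650 CPM in the knockout and 26.0 ± 4.45 CPM in control (SD, n = 3 each). This was a fall of 0.59 log2 units (SE 0.14, edgeR adjusted p = 0.0115), but the vehicle libraries averaged 18.9 ± 1.36 CPM (SD, n = 3), and 0 of 12 readers passed against vehicle by edgeR, DESeq2 or limma-voom, with 2 at an unadjusted p below 0.05, beside 10.8% of all genes. Uhrf1, the partner of Dnmt1 at newly replicated sites, was higher by 0.35 log2 units against control (SE 0.08, edgeR adjusted p = 0.0134).

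The NuRD complex, which holds Mbd3 or Mbd2, had 1 of 13 genes (7.69%) lower in the knockout against control, beside 6.43% of all genes. It was the histone chaperone gene Rbbp7 (log2 change -0.26, SE 0.06, edgeR adjusted p = 0.0111), at means of 270.1 ± 18.9 CPM in the knockout, 276 ± 5.63 in vehicle and 323 ± 4.48 in control (SD, n = 3 each). Against vehicle the scaffold gene Mta2 and the deacetylase gene Hdac1 were lower, or 15.4% beside 4.13% of all genes. Their log2 changes were -0.17 and -0.21 (edgeR adjusted p = 0.0355 and 0.0489, SE 0.05 and 0.06). Hdac1 averaged 191.9 ± 9.31 CPM in the knockout, 222 ± 7.21 in vehicle and 191.8 ± 13.6 in control (SD, n = 3 each). Its knockout level was thus that of control. Mta2 averaged 279 ± 5.25, 313 ± 3.87 and 290 ± 1.06 CPM in these groups. The remodelling ATPase gene Chd4 and Cdk2ap1 were higher in vehicle than in control, by 0.27 and 0.33 log2 units (edgeR adjusted p = 0.0179 and 0.0374, SE 0.05 and 0.08). Of 10 genes for partners of MBD1 and MBD2, Wdr77 (a partner of the arginine methyltransferase PRMT5), Tacc3 (a spindle protein) and the chromatin assembly gene Chaf1a rose in the knockout against control, by 0.32, 0.33 and 0.24 log2 units (edgeR adjusted p = 0.00653, 0.0192 and 0.0471, SE 0.07, 0.08 and 0.07). These were 3 of 10 called higher, beside 7.83% of all genes. Chaf1a averaged 158 ± 3.82 CPM in the knockout, 163 ± 6.74 in vehicle and 134 ± 2.45 in control, and Tacc3 averaged 168 ± 4.47 CPM in the knockout, 178 ± 16.3 in vehicle and 133 ± 7.54 in control (SD, n = 3 each). Wdr77 also rose against vehicle (0.29, SE 0.07, edgeR adjusted p = 0.0123), while Atf7ip, which links MBD1 to the histone methyltransferase SETDB1, was lower there (-0.27, SE 0.07, edgeR adjusted p = 0.0211). In vehicle against control Atf7ip and Tacc3 rose by 0.40 and 0.41 (SE 0.07 and 0.08, edgeR adjusted p = 0.00878 and 0.0203).

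**Figure D5:**
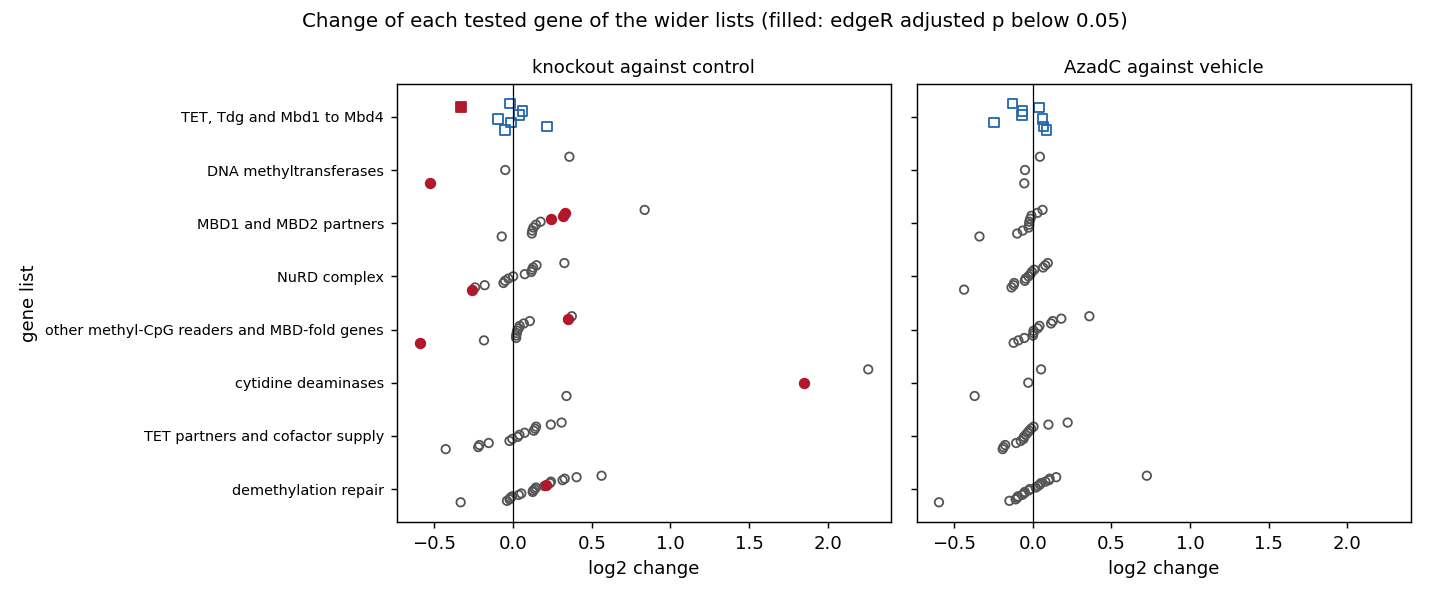
Log2 change of each tested gene, by list, in the knockout against control (left) and in AzadC against vehicle (right), with squares for the TET, Tdg and Mbd1 to Mbd4 genes and circles for the other lists. Filled red symbols have an edgeR adjusted p below 0.05. There are 10 on the left, 1 of them Tet2 and 1 the targeted gene Dnmt1, and 0 on the right, where 0.0115% of all genes passed.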

How the data were processed

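Each library has 1 deposited table of RSEM gene results with 56691 genes. The expected counts, the TPM values and the mean transcript lengths in it are the authors' own, per the file headers. Per the submitters' processing notes, the build was mm10 and the tools were RSEM 1.3.1 and STAR 2.7.0, with DESeq2, FastQC and Trim Galore also listed. The sources used here do not state the annotation release or strand setting. Expected counts were rounded and fitted in R 4.3.3 with edgeR 4.0.16: filterByExpr by group (17335 genes), TMM scaling (factors 0.985 to 1.01), 1 mean per group over all 12 libraries, glmQLFTest, and Benjamini-Hochberg adjustment over all genes with a threshold of 0.05. SEs are the absolute log2 change over the square root of F, and 95% intervals use the t distribution of the same fit. Log2 CPM used a prior count of 0.5. Gene coordinates came from GENCODE M21, matched by ID for 91.9% of genes. The fit was tested on simulated data. Alternatives used DESeq2 1.42.0 and limma 3.58.1. Named were the 8 genes, Dnmt1, up to 3 called genes of each wider list per comparison and the 3 closest patterns to a gene differing among groups. The genes and lists were chosen with earlier results of these data known. No 2 libraries of a group agreed within sampling noise. Some results under these rules are not reported here. The replicate numbers, which the labels do not explain, were checked by the correlation of deviations from group means. All 3 same-numbered pairs exceeded 0.1 in knockout and control (0.13 to 0.38). In AzadC and vehicle 0 of 3 did, in vehicle and control 2, and in knockout and vehicle 1. Pairs with different numbers were not compared. The tests above did not pair the libraries, and the replicate number entered only the block fits given below.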

Additional observations from a re-analysis of the deposited data

How the results depend on the processing

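The number of the 8 genes called in the knockout against control was 1 in all settings other than leaving out libraries, and 0 to 1 when each library was left out in turn (0 without knockout 2). Against vehicle it was 1, and 0 with the transcript length offset. For the difference between the effects it was 0, and 1 with DESeq2 (Tet2), and 0 to 1 when each library was left out (1 without control 1, edgeR adjusted p = 0.0431, range over the alternatives 0.0280 to 0.156). For AzadC against vehicle and for vehicle against control it was 0 in every setting, and for any difference among the 4 groups 1 in every setting. Of 688 recomputed log2 changes of single genes, 4 crossed the threshold, all of Tet2, and 19 changed sign among changes that never passed. The Tet2 change in the knockout against control ran from -0.39 to -0.30 when 1 library was left out. With the replicate number as a block, Tet2 stood at -0.33 against control (edgeR adjusted p = 0.0208) and -0.38 against vehicle (0.0134), and 1 gene was called in each. Fitted alone with that block, a setting chosen after the data were seen, knockout against control gave -0.33 for Tet2 (edgeR adjusted p = 0.0331, range over the alternatives 0.00158 to 0.0538) and 1 gene called. The block changed no call of the 8 genes. In the knockout against control the 95% interval was narrowest for Mbd1 (-0.18 to 0.08) and widest for Mbd3 (-0.28 to 0.25), which limits the changes detectable with 3 libraries a group. The share of all genes called moved in both directions. DESeq2 called 0.473% in AzadC against vehicle, 7.58% in vehicle against control and 8.42% for the difference between effects, against 0.0115%, 3.52% and 4.4% by edgeR. Without filter, 119 genes passed in AzadC against vehicle, against 2, 1259 in vehicle against control, against 610, and 1438 for the difference, against 763. With the length offset the share fell to 1.9% in vehicle against control and 2.77% for the difference. Leaving out 1 library moved it to as low as 7.6% in knockout against control (without knockout 2), 5.65% in knockout against vehicle (without knockout 2; 6.42% without vehicle 3), 0.758% in vehicle against control (without vehicle 1; 0.774% without vehicle 3, 1.59% without control 2, 1.88% without control 3), 1.83% for the difference (without knockout 2) and 8.64% for any difference (without knockout 2). It was 0.0947% in AzadC against vehicle without vehicle 1. Of the 74 wider-list genes DESeq2 called 16 in vehicle against control, against 8 by edgeR.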
